A study of Caenorhabditis elegans with 9 samples.

Results

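The genes described here stayed above wild type in every *nhr-114* mutant library, whether or not the mothers had received vitamin B12. The genes were selected on their CPM in mutants and wild type. A gene belonged to the set when its deposited CPM (counts scaled to a common library total) averaged at least 5 over the 6 mutant libraries and each of these 6 values was more than 2 times the highest wild-type value. Names of 18 large families or groups, among them the cuticle collagens, sperm proteins, nuclear receptors, C-type lectins and cytochrome P450 enzymes, had been set aside. Of 20306 entries in the CPM table, 36 met this rule, and they stand for 35 genes, since the values of 1 gene are listed under 2 names. Another 5 entries met the thresholds but carry names of those families. Of the 35 genes, 19 are listed under a gene name of letters and a number and 16 under a clone-based name.

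RNA was sequenced from whole Caenorhabditis elegans at larval stage 4. The 9 libraries formed 3 groups of 3: mutants carrying the gk849 allele of *nhr-114* whose mothers had been given 8 µM vitamin B12, mutants of the same allele with maternal vehicle, and wild type with maternal vehicle. B12 was thus supplied to the mothers, and wild type with B12 is not part of the comparison. Since the labels do not name separate cultures for the replicates, the p-values cover the spread among these libraries alone, part or all of which may be technical. Library totals ran from 14461993 to 16659895 estimated counts. The targeted gene, *nhr-114* (WBGene00003704, WBcel235 chromosome V, 4187202 to 4190008), had 3, 2 and 4 counts in the mutant B12 libraries, 3, 4 and 4 in the mutant vehicle libraries, and 6954, 8027 and 7436 in wild type.

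NHR-114 is a nuclear hormone receptor related to mammalian HNF4 that acts in the intestine and the germline. It switches on genes of the methionine and S-adenosylmethionine cycle when that cycle runs low, a state that a lack of vitamin B12 produces because B12 is the cofactor of methionine synthase. Mutants are sterile on a diet poor in B12 and regain fertility when B12 is supplied.

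The 35 genes covered a wide range of levels. Their mean CPM ran from 1.03 to 907 in mutants with B12 (median 19.7), from 2.46 to 1372 in mutants with vehicle (median 27.1) and from 0.102 to 317 in wild type (median 5.07). The ratio of mean CPM to wild type was 2.29 to 83.6 with B12 (median 4.25) and 2.65 to 188 with vehicle (median 5.98). These ratios chose the genes and are given as a description without a test. On TPM, a scale that corrects for transcript length, *lipl-5* was the most abundant with B12, at a mean of 489 TPM, followed by *nlp-34* (222 TPM), *cnc-4* (130 TPM) and *K03H6.2* (123 TPM). The quantified *nlp-34* transcript has 260 bases, the shortest of the set, and its mean with B12 was 15.9 CPM, against 31.5 CPM for *cnc-4*. The place of *nlp-34* in this order thus rests on the length correction. With vehicle the gene listed as *Y41C4A.32* was the most abundant, at 1048 TPM.

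**Figure D1:**
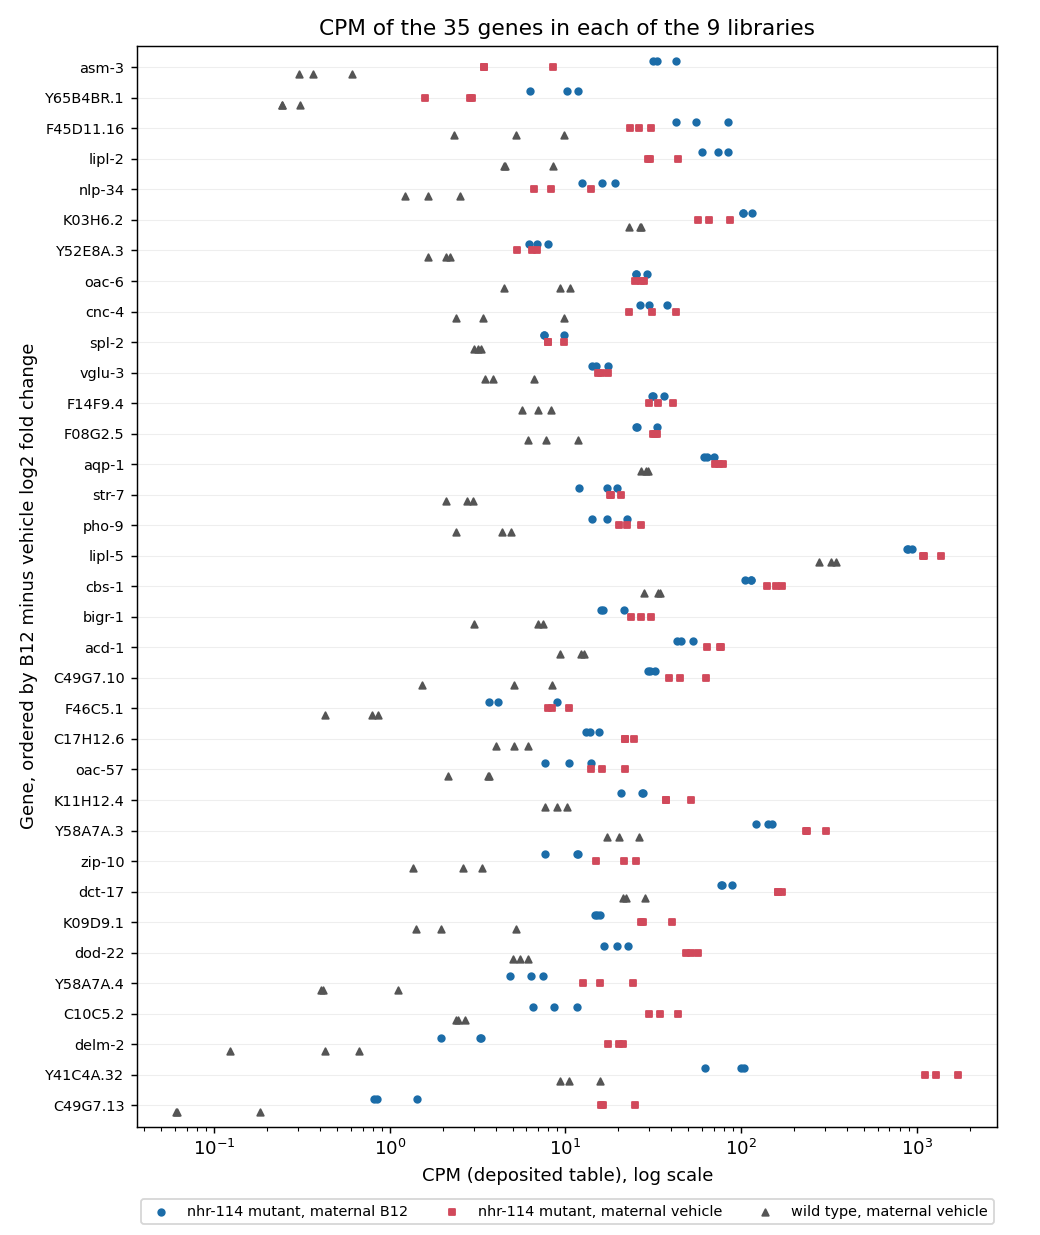
CPM of the 35 genes in each of the 9 libraries on a log axis; blue circles are mutants with maternal B12, red squares mutants with maternal vehicle and grey triangles wild type. The genes are ordered from the highest to the lowest B12 minus vehicle log2 fold change, so blue lies right of red at the top (*asm-3*) and left of it at the bottom (*C49G7.13*), while the wild-type points lie left of both in every row, as the selection requires.

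The threshold cut through a continuous range. The lowest mutant value divided by the highest wild-type value ran from 2.01 to 5.60 over the 35 genes (median 2.70). The genes just inside were *K11H12.4* (2.01), *aqp-1* (2.06), and *K03H6.2* and *oac-57* (2.102 each). The genes just outside were *Y58A7A.5* (1.99), *F41B4.3* (1.98) and *F13A7.11* (1.94). With a ratio of 3 in place of 2, 13 entries remained.

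The contrast that the selection did not use directly is maternal B12 against vehicle within the mutant. The selection bounds it: a gene that B12 brought below 2 times the highest wild-type value could not enter the set, so large falls to the wild-type level are missing by construction. A gene near the wild-type level with vehicle that was higher with B12 could not enter either. All 35 genes passed the filter on low counts, as did 14795 genes in all. With B12, 5 of the 35 genes were higher and 15 were lower than with vehicle, and 15 did not pass the threshold (edgeR quasi-likelihood test, Benjamini-Hochberg adjusted p under 0.05). Among all genes tested, 22.6% were higher and 23.8% lower with B12, and 46.4% passed in either direction. Since the selection bounds both directions, nothing is read from how the shares of the set compare with these. The median log2 fold change was -0.48 over the 35 genes, against -0.04 over all genes tested. A fold change of at least 2 with a call was seen for 12 of the 35 genes, and for 23.4% of all genes tested. The B12 and vehicle libraries did not overlap for 24 of the 35 genes in deposited CPM, against 59.1% of all genes tested in CPM after TMM scaling. In 5 of these 24 the B12 libraries lay above the vehicle libraries and in 19 below.

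**Figure D2:**
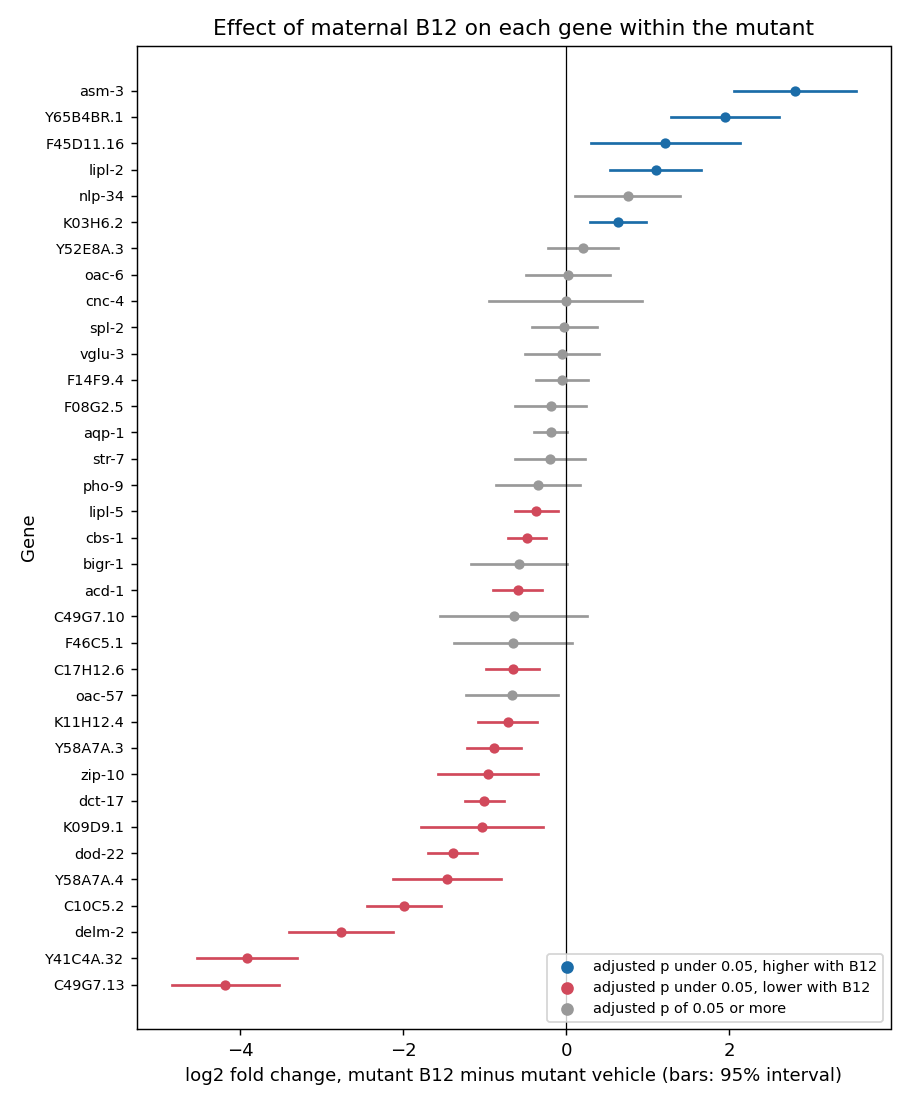
Log2 fold change of each of the 35 genes between mutants with maternal B12 and mutants with maternal vehicle (points) with its 95% interval (bars), coloured by the edgeR call. The 5 blue genes were higher with B12, the 15 red genes lower, and the 15 grey genes did not pass, with values from -4.18 for *C49G7.13* to 2.81 for *asm-3*.

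Set against wild type, the excess that was left with B12 varied widely. Expressed as the log2 fold change over wild type with B12 divided by that with vehicle, it ran from 43.1% to 178% with a median of 81.2%, again a description of values used in the selection. Among the 15 genes that did not pass between B12 and vehicle, 10 had a 95% interval of the log2 difference that lay within -1 and 1. For *C49G7.10*, *F46C5.1*, *bigr-1*, *nlp-34* and *oac-57* the interval reached past -1 or 1, so a 2-fold difference is not bounded there.

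The summed levels of several marker lists did not overlap between the mutant groups. The summed CPM of 33 spermatogenesis markers was 591 to 735 with B12, 140 to 286 with vehicle and 440 to 701 in wild type. For 12 hypodermis markers it was 13874 to 18114 with B12, 4423 to 6793 with vehicle and 12266 to 15884 in wild type. A list that mixes oocyte and yolk markers (20 genes) summed to 1603 to 3132 CPM with B12, 545 to 664 with vehicle and 603 to 1291 in wild type. The 16 intestine markers summed to 7952 to 9020 CPM with B12, 11851 to 13626 with vehicle and 9375 to 11236.5 in wild type. The 16 neuron markers summed to 616 to 711 CPM with B12, 722 to 776 with vehicle and 579 to 703 in wild type, and the 3 coelomocyte markers to 19.6 to 24.8 CPM with B12, 13.3 to 17.2 with vehicle and 15.7 to 24.1 in wild type. The B12 sums lay above the vehicle sums for spermatogenesis, hypodermis, oocyte and yolk, and coelomocyte markers, and below them for intestine and neuron markers. No detected marker of the 11 lists was at 0 in all libraries. Each of these lists, and the glia list, was apart between B12 and vehicle (two-sided exact permutation test, p = 0.1, the smallest value possible with 3 against 3, and 0.157 after adjustment over 11 lists). The glia list holds *delm-2*, a gene of the set that was lower with B12, so its separation is no independent result. *delm-2* made up 1.97 to 3.32 CPM of the glia sums with B12 and 17.5 to 21.2 CPM with vehicle. The lists for molting (exact p = 0.6), body wall muscle (0.7), pharynx (0.6) and somatic gonad (0.2) overlapped. In whole animals, fewer cells of a type and less RNA per cell cannot be told apart. The part of these marker levels in the B12 results was not tested. With the spermatogenesis level as a covariate, whose values do not overlap between the mutant groups, 1 of the 35 genes was called higher and 2 lower with B12, and 12 and 67 of all genes tested. The median log2 fold change of the 35 genes was -0.73 with the covariate and -0.48 without it, and 7 of the 35 changed sign. Because the covariate separates the mutant groups, this fit holds little information on the B12 difference, and the cause was not tested.

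Of the 20 calls, 3 were made in the same direction in each of 19 alternative analyses, the covariate included: *asm-3*, *C49G7.13* and *Y58A7A.4*. A further 13 were lost only with the covariate, and in 8 of these the log2 fold change was as large or larger with it, such as -4.03 with and -3.92 without it for *Y41C4A.32*, and 1.77 with and 1.103 without it for *lipl-2*. In the other 5 it was smaller, such as -0.76 with and -1.39 without it for *dod-22*, and -0.03 with and -0.48 without it for *cbs-1*. The covariate's values do not overlap between the mutant groups, so nothing is read from the size of these fold changes. The calls for *F45D11.16*, *K09D9.1*, *lipl-5* and *zip-10* were lost in other alternatives too.

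The set held 4 genes of lipid breakdown, which responded differently to B12. The acid sphingomyelinase gene *asm-3* and the lipase gene *lipl-2* were higher with B12, the lipase gene *lipl-5* was lower, and the sphingosine-1-phosphate lyase gene *spl-2* did not pass. Acid sphingomyelinases release ceramide from sphingomyelin, and the lyase breaks down sphingosine-1-phosphate at the end of the same pathway.

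*asm-3* (WBGene00000213, chromosome IV, 520214 to 523809) had 42.6, 31.6 and 33.0 CPM in mutants with B12, 3.46, 8.47 and 3.42 CPM in mutants with vehicle, and 0.305, 0.367 and 0.611 CPM in wild type. The B12 libraries were the highest of the 9, and no group overlapped another. The log2 fold change between B12 and vehicle was 2.81 ± 0.34 (SE; edgeR, Benjamini-Hochberg adjusted p = 0.000183), the largest rise of the set. Its log2 fold change over wild type was 6.42 ± 0.45 with B12 and 3.61 ± 0.48 with vehicle. The other 2 asm genes tested did not pass in any of the comparisons.

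*lipl-2* (WBGene00009773, chromosome V, 9791567 to 9793241), a member of the lysosomal acid lipase family, had 74.3, 59.98 and 84.4 CPM with B12, 29.3, 43.6 and 30.3 CPM with vehicle, and 4.45, 4.53 and 8.49 CPM in wild type. All B12 libraries lay above all vehicle libraries. The difference with B12 was 1.103 ± 0.25 on the log2 scale (edgeR, Benjamini-Hochberg adjusted p = 0.0055).

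*lipl-5* (WBGene00022642, chromosome V, 385746 to 387740), another gene of that family, was at 943, 892 and 885 CPM with B12, 1105, 1369 and 1084 CPM with vehicle, and 279, 346 and 326 CPM in wild type. Its groups did not overlap, but the difference between the mutant groups was small, at -0.37 ± 0.12 (edgeR, Benjamini-Hochberg adjusted p = 0.0285). Besides the covariate, the call was lost under upper quartile scaling, with no filter, and without any 1 of 4 libraries, mutant B12 replicates 1, 2 and 3 and mutant vehicle replicate 2 (edgeR, adjusted p between 0.0527 and 0.119). The shorter of its 2 annotated transcripts took 12.8% to 14.7% of the gene's estimated counts with B12, 23.1% to 26.6% with vehicle and 5.60% to 21.4% in wild type. These shares did not overlap between the mutant groups, and they depend on how the quantification divides reads between transcripts that share sequence.

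*spl-2* (WBGene00006418, chromosome V, 9144619 to 9146899) had 7.57, 9.83 and 7.601 CPM with B12, 7.96, 9.82 and 7.96 CPM with vehicle, and 3.29, 3.00 and 3.17 CPM in wild type. The mutant groups overlapped, with a log2 difference of -0.02 (95% interval -0.42 to 0.38; edgeR, Benjamini-Hochberg adjusted p = 0.934).

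Among the 7 lipase genes tested that are not in the set (*lipl-1*, *lipl-3*, *lipl-4*, *lipl-6*, *lipl-7*, *atgl-1* and *hosl-1*), 1 was higher and 4 were lower than wild type with B12, and 1 was higher and 3 were lower with vehicle (edgeR, Benjamini-Hochberg adjusted p under 0.05). Of all genes tested, 7.28% were higher and 6.13% lower than wild type with B12 (13.4% in either direction), and 18.3% higher and 18.3% lower with vehicle (36.6% in either direction). *lipl-1*, of the same family, had 15.98, 15.2 and 14.9 CPM with B12, 2.08, 4.21 and 2.67 CPM with vehicle, and 2.44, 2.82 and 2.63 CPM in wild type. Its B12 libraries were the highest, mutant vehicle replicate 2 also stood above the wild-type libraries, and the log2 fold change over wild type was called with B12 (2.61 ± 0.25 on the log2 scale; edgeR, Benjamini-Hochberg adjusted p = 9.67e-05). With vehicle *lipl-1* did not pass (0.23 ± 0.26; edgeR, Benjamini-Hochberg adjusted p = 0.52). *lipl-3* was lower than wild type by a log2 fold change of -3.04 ± 0.33 with B12 and -1.85 ± 0.29 with vehicle, and *lipl-4* by -2.15 ± 0.23 and -1.77 ± 0.22. *hosl-1*, a homologue of hormone-sensitive lipase, was at -0.95 ± 0.11 and -1.43 ± 0.11. *lipl-6* was at -0.91 ± 0.25 with B12 and -0.05 ± 0.24 with vehicle, and was called with B12 only. The gene higher with vehicle was *atgl-1*, at 1.34 ± 0.15, and with B12 it was at 0.19 ± 0.15 and did not pass. The family thus held genes on both sides of wild type.

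**Figure D3:**
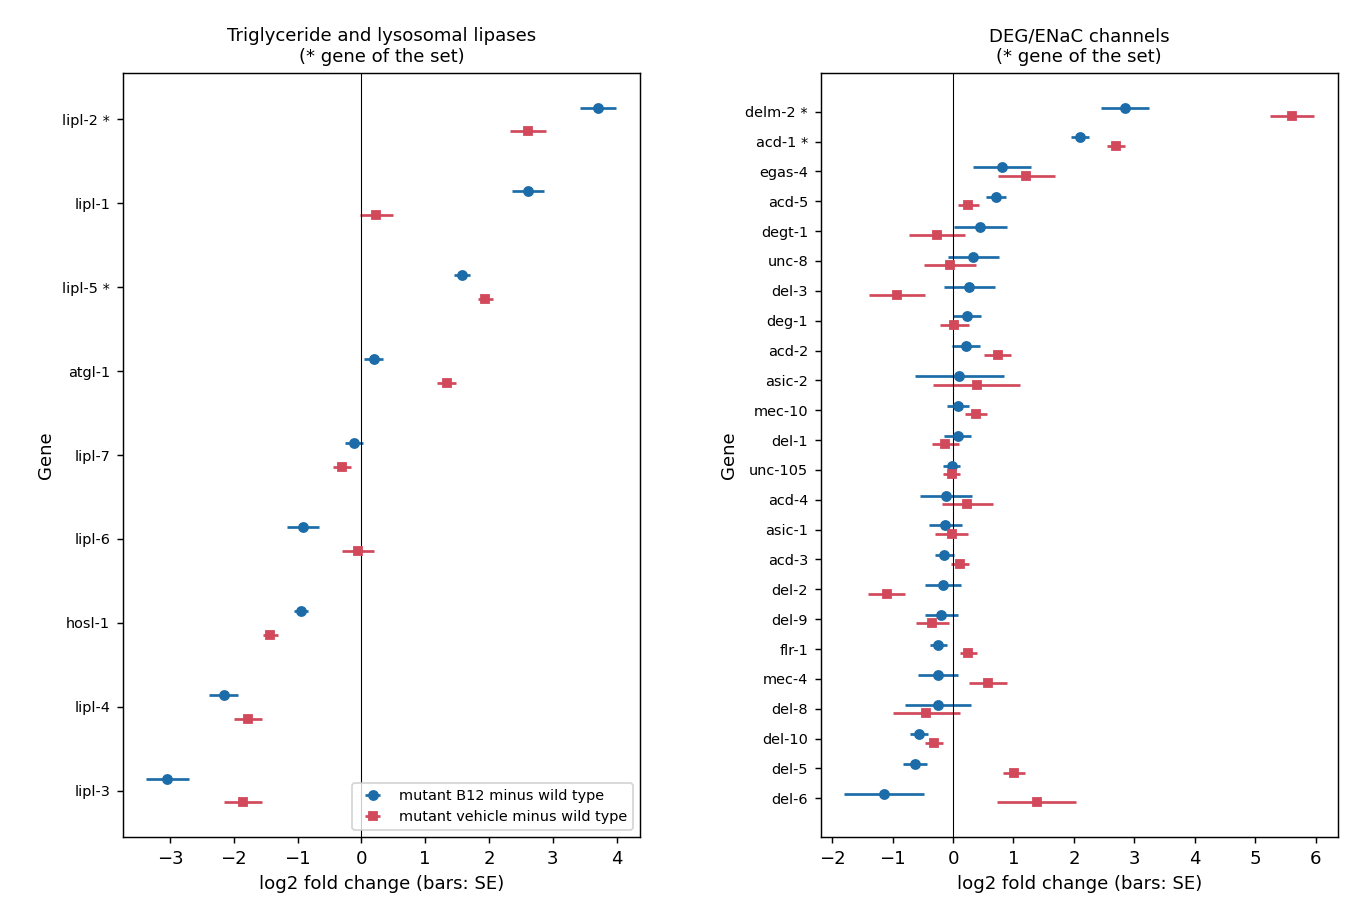
Log2 fold change over wild type with its SE for mutants with maternal B12 (blue circles) and with maternal vehicle (red squares), for the lipase list (left) and the DEG/ENaC channel list (right); an asterisk marks genes of the set. Both panels are ordered by the B12 value: *lipl-2*, *lipl-1* and *lipl-5* stand right of 0 and *hosl-1*, *lipl-4* and *lipl-3* left of it, while most channel genes other than *delm-2* and *acd-1* lie near 0.

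Of sulfur amino acid metabolism the set held *cbs-1* (WBGene00013866, chromosome X, 10054275 to 10057528), the only gene of the set on the X chromosome. It encodes cystathionine beta-synthase, which joins homocysteine to serine in the first step of transsulfuration and so draws homocysteine away from the methionine cycle. *cbs-1* had 105.5, 113 and 114.2 CPM with B12, 141, 171 and 159 CPM with vehicle, and 33.5, 28.04 and 34.5 CPM in wild type. The 3 groups did not overlap, and the B12 libraries lay between the others. The difference with B12 was -0.48 ± 0.10 (edgeR, Benjamini-Hochberg adjusted p = 0.00386), and the log2 fold change over wild type was 1.86 ± 0.11 with B12 and 2.34 ± 0.11 with vehicle.

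Among the 14 other genes of transsulfuration and of cysteine and sulfide metabolism that were tested, 1 was higher and 2 were lower than wild type with B12, and 4 were higher and 4 lower with vehicle. For all genes tested, the shares were 7.28% and 6.13% with B12, and 18.3% in each direction with vehicle. The gene that was higher with B12 was *cth-1*, cystathionine gamma-lyase, the next enzyme of the pathway. It had 737, 709 and 587 CPM with B12, 411, 485 and 443 CPM with vehicle, and 199, 215 and 253 CPM in wild type. It was thus higher with B12 than with vehicle, by 0.62 ± 0.12, where *cbs-1* was lower (edgeR, Benjamini-Hochberg adjusted p = 0.0018). *cth-1* is not in the set, since its lowest mutant value was below 2 times its highest wild-type value. The cysteine synthase homologue *cysl-3* was lower than wild type with B12 (-0.74 ± 0.13) and higher with vehicle (0.58 ± 0.12), and *mpst-3*, a mercaptopyruvate sulfurtransferase gene, was at -0.43 ± 0.09 and 0.35 ± 0.08.

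Channels and transporters made up 4 genes of the set. The degenerin and epithelial sodium channel (DEG/ENaC) genes *delm-2* and *acd-1* were both lower with B12, while the aquaglyceroporin gene *aqp-1*, whose product passes water and glycerol, and *vglu-3*, a homologue of vesicular glutamate transporters, did not pass. DEG/ENaC proteins form sodium-permeable channels gated by touch, acid or other signals, and *acd-1* and *delm-2* are known from glia of sense organs.

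*delm-2* (WBGene00016063) and *acd-1* (WBGene00016064) are neighbours on the same strand of chromosome I, at 4109407 to 4112385 and 4103698 to 4108167, with 1.24 kb between them. *delm-2* had 3.24, 3.32 and 1.97 CPM with B12, 17.5, 21.2 and 20.3 CPM with vehicle, and 0.670, 0.122 and 0.427 CPM in wild type. *acd-1* had 45.3, 53.1 and 43.2 CPM with B12, 64.4, 76.8 and 76.3 CPM with vehicle, and 9.33, 12.31 and 12.8 CPM in wild type. Both genes kept the B12 libraries between the vehicle and the wild-type libraries without overlap, but the step differed in size: -2.76 ± 0.29 for *delm-2* and -0.60 ± 0.14 for *acd-1* (edgeR, Benjamini-Hochberg adjusted p = 7.05e-05 and 0.00486). The 8 glia markers, *delm-2* among them, summed to 73.6 to 113 CPM with B12, 128 to 141 with vehicle and 113.7 to 168 in wild type. Since *delm-2* is part of these sums, they are not independent of it. Their part in these results was not tested.

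Of the other 22 DEG/ENaC genes tested, 1 was higher and 1 lower than wild type with B12, and with vehicle 2 were higher and 1 lower. Shares over all genes tested were 7.28% and 6.13% with B12, and 18.3% for each direction with vehicle. The gene that was higher with B12 was *acd-5* (0.71 ± 0.17; edgeR, Benjamini-Hochberg adjusted p = 0.022), and the lower one was *del-10* (-0.57 ± 0.15; edgeR, Benjamini-Hochberg adjusted p = 0.034). *del-5* was higher than wild type with vehicle (1.01 ± 0.19) and lower with B12 than with vehicle (-1.64 ± 0.19), and with B12 its value against wild type was -0.63 ± 0.20 (edgeR, Benjamini-Hochberg adjusted p = 0.057). *flr-1*, a channel gene needed for the timing of defecation, was lower with B12 than with vehicle (-0.50 ± 0.14). So was *del-6* (-2.52 ± 0.68), whose wild-type libraries ranged from 21.2 to 121 CPM and which did not pass against wild type in either mutant group. Between the mutant groups 2 of the 22 were higher and 3 lower with B12, against 22.6% and 23.8% of all genes tested.

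*aqp-1* (WBGene00000169, chromosome II, 7235828 to 7238349) had 69.8, 63.9 and 61.1 CPM with B12, 75.2, 79.3 and 71.3 CPM with vehicle, and 28.7, 29.7 and 26.8 CPM in wild type. The 3 groups did not overlap, yet the difference with B12 was -0.19 (95% interval -0.39 to 0.01) and did not pass (edgeR, Benjamini-Hochberg adjusted p = 0.114). Its transcript a took 23.1% to 37.1% of the gene's estimated counts with B12, 36.1% to 48.97% with vehicle and 14.6% to 20.004% in wild type, so the mutant groups overlapped and both lay above wild type. *vglu-3* (WBGene00011556, chromosome III, 10300378 to 10303423) had 14.1, 14.8 and 17.4 CPM with B12, 17.5, 15.3 and 15.99 CPM with vehicle, and 3.47, 3.86 and 6.59 CPM in wild type. Its mutant groups overlapped, with a log2 difference of -0.05 (95% interval -0.50 to 0.41). Of the 35 genes, 7 overlap a gene on the other strand, and the labels do not say if the library kit preserved strand, so reads of the 2 partners may not be told apart. The partners are *ctsa-3.1* for *aqp-1*, *T07A5.1* for *vglu-3*, *skp-1* for *zip-10*, *cox-6B* for *pho-9*, *lir-3* for *bigr-1*, *gtf-2F1* for *Y52E8A.3* and *clec-172* for *K03H6.2*.

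**Figure D4:**
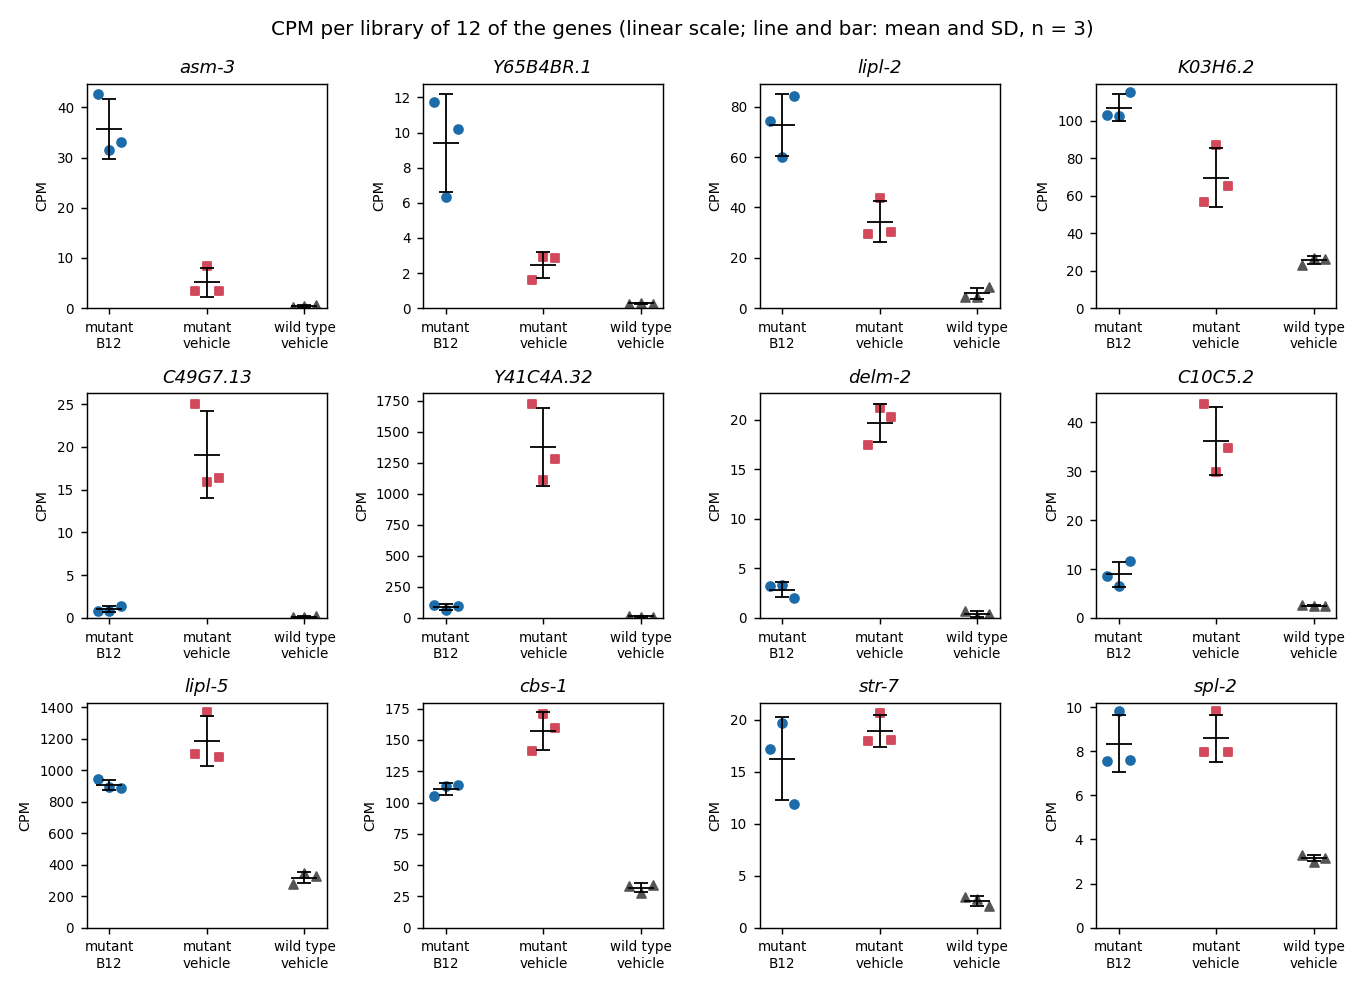
CPM on a linear scale for 12 genes of the set, with mutants on maternal B12 (blue circles), mutants on maternal vehicle (red squares) and wild type (grey triangles) in each panel, and the mean and SD of each group (n = 3). In the top row the B12 libraries are the highest, in the middle row they lie below the vehicle libraries by log2 differences of -1.99 to -4.18, and in the bottom row *lipl-5* and *cbs-1* show a small step while *str-7* and *spl-2* overlap between the mutant groups.

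Genes of innate defence and stress were represented by *dod-22*, *dct-17*, *cnc-4* and *nlp-34*. *dod-22* encodes a CUB-like domain protein and was named for lying downstream of the FOXO factor DAF-16, *dct-17* takes its name from a screen of DAF-16 targets for effects on germline tumours, and *cnc-4* and *nlp-34* belong to families of small secreted antimicrobial peptides. The first pair was lower with B12, and the peptides did not pass.

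*dod-22* (WBGene00010125, chromosome IV, 12965374 to 12967392) had 16.6, 19.7 and 22.7 CPM with B12, 48.6, 56.6 and 52.2 CPM with vehicle, and 6.16, 5.02 and 5.49 CPM in wild type. The B12 libraries lay between the other groups, with a difference from vehicle of -1.39 ± 0.14 (edgeR, Benjamini-Hochberg adjusted p = 4.87e-05). *dct-17* (WBGene00009431, chromosome V, 13727761 to 13730784) had 88.7, 77.5 and 76.5 CPM with B12, 162, 162 and 171 CPM with vehicle, and 22.2, 21.4 and 28.4 CPM in wild type. It too kept 3 separate groups, and the difference with B12 was -1.004 ± 0.11 (edgeR, Benjamini-Hochberg adjusted p = 7.93e-05).

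*cnc-4* (WBGene00000558, chromosome V, 1447195 to 1447707) had 37.7, 26.7 and 29.996 CPM with B12, 42.8, 23.2 and 30.98 CPM with vehicle, and 3.41, 2.39 and 9.77 CPM in wild type. The mutant groups overlapped, with a log2 difference of -0.01 (95% interval -0.95 to 0.93). *nlp-34* (WBGene00015046, chromosome V, 3978825 to 3979134) had 19.05, 12.5 and 16.08 CPM with B12, 13.98, 6.64 and 8.27 CPM with vehicle, and 1.22, 1.65 and 2.50 CPM in wild type. Mutant vehicle replicate 1 lay within the B12 range, and the log2 difference of 0.76 ± 0.29 missed the threshold (edgeR, Benjamini-Hochberg adjusted p = 0.0542). In 10 of 19 alternatives it passed in the same direction, and without mutant vehicle replicate 1 it was 1.11 (adjusted p = 0.00991).

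The list of CUB-like and dod genes held 13 other tested genes. Of these, 6 were higher and 1 lower than wild type with B12, and 8 were higher and none lower with vehicle (edgeR, Benjamini-Hochberg adjusted p under 0.05). Between the mutant groups 4 were higher and 8 lower with B12. Over all genes tested, 7.28% were higher and 6.13% lower than wild type with B12, and 18.3% in each direction with vehicle. Between the mutant groups these shares were 22.6% and 23.8%. The pathogen-response genes *irg-4* and *irg-5* were higher than wild type with B12, by 0.97 ± 0.09 and 0.80 ± 0.13. *irg-4* was also higher with B12 than with vehicle (1.18 ± 0.10), and *irg-5* did not pass between the mutant groups (0.03 ± 0.13; edgeR, Benjamini-Hochberg adjusted p = 0.87). *dod-23* and *dod-3* were higher with B12 than in wild type (2.70 ± 0.47 and 2.16 ± 0.41) and than with vehicle (2.92 ± 0.49 and 2.40 ± 0.42). Their levels were low, at 1.38 to 3.60 CPM for *dod-23* and 7.93 to 15.4 CPM for *dod-3* with B12. Larger differences went the other way. *dod-21* had 1.80, 0.351 and 1.43 CPM with B12, 250, 194 and 221 CPM with vehicle, and 0, 0.184 and 0 CPM in wild type. Its log2 difference between B12 and vehicle was -7.48 ± 0.39, and those of *cld-1*, *dod-20* and *irg-6* were -7.38 ± 0.43, -3.73 ± 0.36 and -3.16 ± 0.29 (edgeR, Benjamini-Hochberg adjusted p of 4.66e-05 or less). These 4 were chosen for naming after their values were seen.

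Genes of regulation, sensing and other enzymes included 6 with a known family. *zip-10* (WBGene00012101, chromosome V, 11650079 to 11650762), a basic leucine zipper transcription factor, had 11.8, 7.66 and 11.7 CPM with B12, 25.3, 14.9 and 21.6 CPM with vehicle, and 2.62, 1.35 and 3.36 CPM in wild type. The 3 groups did not overlap, and the difference with B12 was -0.96 ± 0.28 (edgeR, Benjamini-Hochberg adjusted p = 0.0168). Besides the covariate, the call was lost without mutant vehicle replicate 1, mutant vehicle replicate 3 or mutant B12 replicate 2, at -0.80, -0.93 and -0.78. Of 10 zip genes tested, *zip-10* included, 1 was higher and 7 were lower with B12 than with vehicle, against 22.6% and 23.8% of all genes tested.

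*C10C5.2* (WBGene00007506, chromosome IV, 9371508 to 9373206), now named *fbxc-58* in the annotation and so of the F-box families that select proteins for ubiquitination, was lower with B12. It had 8.65, 6.51 and 11.6 CPM with B12, 43.8, 29.9 and 34.8 CPM with vehicle, and 2.68, 2.39 and 2.44 CPM in wild type. The B12 libraries lay between the other groups, nearer in CPM to wild type, and the difference from vehicle was -1.99 ± 0.21 (edgeR, Benjamini-Hochberg adjusted p = 6.56e-05).

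*str-7* (WBGene00006075, chromosome V, 16097824 to 16099541), of a family of 7-transmembrane chemoreceptors, had 17.2, 19.7 and 11.9 CPM with B12, 17.995, 20.7 and 18.1 CPM with vehicle, and 2.99, 2.76 and 2.08 CPM in wild type. The mutant groups overlapped (log2 difference -0.20, 95% interval -0.62 to 0.23). Of 186 str genes in the files only 5 had counts high enough to be tested, and 3 of these were higher than wild type with vehicle and 2 with B12, *str-7* included. Over all genes tested, 18.3% were higher with vehicle and 7.28% with B12. The gene next to *str-7*, 1.14 kb away, is *cth-1*, described above.

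*pho-9*, an acid phosphatase gene, and the acyltransferase genes *oac-6* and *oac-57* did not pass between the mutant groups. *pho-9* had 22.4, 14.1 and 17.2 CPM with B12, 26.9, 20.1 and 22.3 CPM with vehicle, and 2.38, 4.35 and 4.88 CPM in wild type. *oac-6* had 25.2, 29.2 and 25.2 CPM with B12, 28.2, 24.8 and 26.99 CPM with vehicle, and 4.45, 9.37 and 10.6 CPM in wild type. Both pairs of mutant groups overlapped, at a log2 difference of -0.34 (95% interval -0.86 to 0.18) for *pho-9* and 0.02 (-0.50 to 0.54) for *oac-6*. *oac-57* had 10.4, 7.67 and 13.9 CPM with B12, 21.8, 13.9 and 16.23 CPM with vehicle, and 3.62, 2.15 and 3.65 CPM in wild type. Its highest B12 library fell just under its lowest vehicle library, and the difference was -0.67 ± 0.26 (edgeR, Benjamini-Hochberg adjusted p = 0.0521). It passed in 7 of 19 alternatives. Of 35 oac genes tested, these 2 included, 12 were higher and 7 lower with B12 than with vehicle, against 22.6% and 23.8% of all genes tested.

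The 16 genes with clone-based names held 3 of the 5 rises and 8 of the 15 falls, against 2 rises and 7 falls among the 19 others. Apart from *C10C5.2*, described above, no function is given to them here.

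*Y65B4BR.1* (WBGene00022040, chromosome I, 562736 to 565184) had 11.7, 6.30 and 10.2 CPM with B12, 1.59, 2.93 and 2.86 CPM with vehicle, and 0.244, 0.306 and 0.244 CPM in wild type. Its 3 groups were apart, with a log2 difference of 1.95 ± 0.30 with B12 (edgeR, Benjamini-Hochberg adjusted p = 0.000553). *K03H6.2* (WBGene00019368, chromosome IV, 1510564 to 1515457), now named *txt-4* in the annotation, had 103, 103 and 115.2 CPM with B12, 56.8, 86.9 and 65.4 CPM with vehicle, and 23.04, 27.003 and 26.4 CPM in wild type. The difference was 0.64 ± 0.15 (edgeR, Benjamini-Hochberg adjusted p = 0.00666), with no overlap.

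The entry *F45D11.16* had 55.7, 42.7 and 84.7 CPM with B12, 26.2, 23.5 and 30.6 CPM with vehicle, and 9.81, 2.33 and 5.25 CPM in wild type. The B12 libraries were the highest and also the most spread of the 3 groups in CPM, and the difference of 1.22 ± 0.40 (edgeR, Benjamini-Hochberg adjusted p = 0.0352) lost its call in 8 of 19 alternatives. Those were the covariate, no filter, a pseudocount of 0.25 in limma, and leaving out any 1 of the mutant vehicle replicates or mutant B12 replicate 1 or 3. Without mutant B12 replicate 3 it was 0.90. The values under this name are those of transcript *F45D11.14* (chromosome II, 1004616 to 1006475), while transcripts *F45D11.15* and *F45D11.16* were at 0 in all libraries.

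The largest falls were those of 2 entries whose names also differ from the quantified transcript. *C49G7.13* had 0.841, 0.813 and 1.43 CPM with B12, 24.99, 15.9 and 16.36 CPM with vehicle, and 0.0610, 0.0612 and 0.183 CPM in wild type. *Y41C4A.32* had 104, 62.6 and 100 CPM with B12, 1721, 1113 and 1283 CPM with vehicle, and 15.8, 9.37 and 10.501 CPM in wild type. In both the B12 libraries lay between the other groups without overlap. The log2 difference with B12 was -4.18 ± 0.30 for *C49G7.13* and -3.92 ± 0.27 for *Y41C4A.32* (edgeR, Benjamini-Hochberg adjusted p = 8.51e-06 and 1.86e-05). Of their log2 excess over wild type with vehicle, 44.1% and 43.1% was left with B12 (percentages of the log2 fold change), the lowest values of the 35. For *C49G7.13* this rests on 1, 1 and 3 counts in wild type and 14, 12 and 21 with B12, so its percentage is uncertain. The values belong to the quantified transcripts *C49G7.7* (1964 bases) and *Y41C4A.11* (1250 bases). The current annotation gives 2 shorter genes at each place, so reads of *C49G7.7* and *C49G7.13*, and of *Y41C4A.11* and *Y41C4A.32*, cannot be told apart.

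*Y58A7A.3* (WBGene00021977, chromosome V, 5077854 to 5080903) and *Y58A7A.4* (WBGene00021978, 5081988 to 5085007) lie next to each other on one strand, 1.09 kb apart. *Y58A7A.3* had 151, 142 and 121.8 CPM with B12, 305, 239 and 236 CPM with vehicle, and 20.2, 17.2 and 26.2 CPM in wild type. *Y58A7A.4* had 6.33, 7.44 and 4.83 CPM with B12, 24.2, 12.58 and 15.7 CPM with vehicle, and 0.417, 0.404 and 1.11 CPM in wild type. Both showed 3 separate groups, at a log2 difference with B12 of -0.89 ± 0.15 and -1.46 ± 0.30 (edgeR, Benjamini-Hochberg adjusted p = 0.000864 and 0.00268). The next gene, *Y58A7A.5*, was the nearest to enter the set from below the threshold, with 12.9, 11.7 and 13.2 CPM with B12, 99.3, 82.5 and 85.6 CPM with vehicle, and 3.65, 2.08 and 5.86 CPM in wild type.

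*K09D9.1* (WBGene00019564, chromosome V, 4025047 to 4026212) had 15.7, 15.05 and 14.7 CPM with B12, 40.4, 27.6 and 26.99 CPM with vehicle, and 1.95, 1.41 and 5.25 CPM in wild type. The groups were apart (-1.04 ± 0.33; edgeR, Benjamini-Hochberg adjusted p = 0.0291), but the call was lost in 6 of 19 alternatives. These were the covariate, no filter, and leaving out mutant vehicle replicate 1 or any 1 of the mutant B12 replicates. *K11H12.4* and *C17H12.6*, both on chromosome IV, had smaller falls, of -0.72 ± 0.16 and -0.65 ± 0.15, with 20.6 to 27.8 CPM and 13.1 to 15.5 CPM with B12, 37.3 to 52.0 CPM and 21.8 to 24.5 CPM with vehicle, and 7.69 to 10.2 CPM and 4.04 to 6.10 CPM in wild type.

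The remaining genes did not pass between the mutant groups. *F14F9.4* had 36.4, 31.6 and 31.1 CPM with B12, 41.2, 29.7 and 33.8 CPM with vehicle, and 6.95, 5.63 and 8.24 CPM in wild type. *F46C5.1* had 3.67, 4.13 and 8.96 CPM with B12, 8.37, 7.99 and 10.4 CPM with vehicle, and 0.792, 0.429 and 0.855 CPM in wild type. *C49G7.10* had 32.2, 29.5 and 30.4 CPM with B12, 63.1, 44.8 and 39.1 CPM with vehicle, and 5.12, 1.53 and 8.43 CPM in wild type. The mutant groups overlapped for *F14F9.4* and *F46C5.1* and did not for *C49G7.10*, whose log2 difference was -0.64 (95% interval -1.54 to 0.25). *F46C5.1* had the widest spread among its B12 libraries of the 35 genes, with a coefficient of variation of 52.5%, and without mutant B12 replicate 3 its difference was -1.18 (edgeR, Benjamini-Hochberg adjusted p = 0.00507). *bigr-1*, *F08G2.5* and *Y52E8A.3* had log2 differences of -0.57 ± 0.26, -0.19 ± 0.20 and 0.21 ± 0.20, and of these the mutant groups were apart only for *bigr-1*, at 15.9 to 21.6 CPM with B12, 23.7 to 30.7 CPM with vehicle and 3.00 to 7.44 CPM in wild type. *C49G7.10* and *bigr-1* each passed as lower with B12 in 2 of 19 alternatives, with only the 6 libraries compared (edgeR, Benjamini-Hochberg adjusted p = 0.0127 and 0.0178) and without wild-type replicate 2 (0.0231 and 0.0155).

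The genes were unevenly placed on the chromosomes. Chromosome V held 15 of the 35 (42.9%), against 20.03% of the genes tested. Chromosomes IV and II held 7 and 6, chromosomes I and III 3 each, and the X chromosome 1 (2.86%, against 13.9% of the genes tested). Within 0.5 Mb of the start of *nhr-114* lay 4 of the 35 (11.4%, against 0.777% of the genes tested), and within 1 Mb 7 (20%, against 1.84%). These 7 were *nlp-34*, *K09D9.1*, *C49G7.13* and *C49G7.10* on one side, 208, 162, 153 and 147 kb from it, and *Y58A7A.3*, *Y58A7A.4* and *F14F9.4* on the other, 891, 895 and 946 kb away. Between 1 and 2 Mb there was none. The placement is a description of chosen genes and was not tested.

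**Figure D5:**
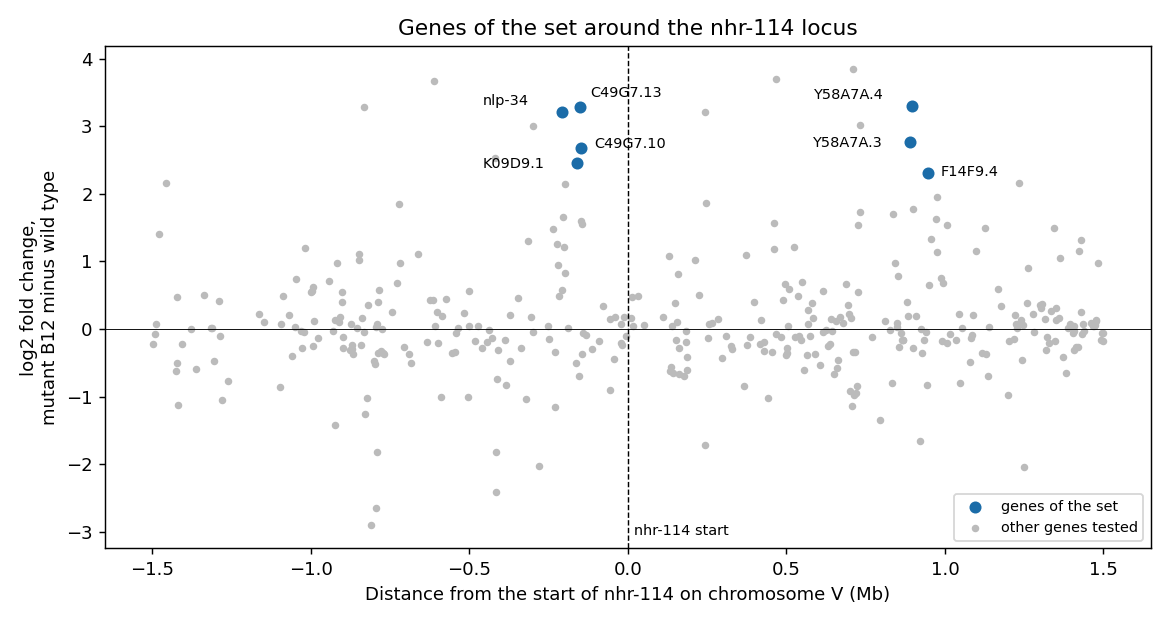
Log2 fold change between mutants with maternal B12 and wild type against the distance from the start of *nhr-114* on chromosome V in Mb, for genes of the set (blue) and the other genes tested (grey); *nhr-114* itself is left out. The 7 genes of the set fall in a group of 4 at 147 to 208 kb on one side and a group of 3 at 891 to 946 kb on the other, all above 2, with grey points on both sides of 0 around them.

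Other genes of this region were called in both directions. Of the 264 other genes tested within 1 Mb of *nhr-114*, 10.6% were higher and 7.20% lower than wild type with B12, against 7.28% and 6.13% of all genes tested. With vehicle, 24.6% were higher and 14.4% lower, against 18.3% for each direction over all genes. Other sequence differences of the mutant strain around the allele are not described in the labels.

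The neighbours of the 35 genes were looked at in the same way. The nearest tested genes on either side that are not in the set numbered 64. Of these, 14.1% were higher and 4.69% lower than wild type with B12, and 32.8% higher and 18.8% lower with vehicle. Over all genes tested, the shares were 7.28% and 6.13% with B12, and 18.3% for each direction with vehicle. Beside *C49G7.13*, *cyp-35A4* did not pass against wild type, at -0.70 with B12 and -0.94 with vehicle on the log2 scale. The other neighbours of *C49G7.13* and *C49G7.10* were *C49G7.12*, at 1.60 with B12 and 4.99 with vehicle, and *irg-2*, at 1.55 and 3.91. *Y58A7A.5* was at 1.77 and 4.56. *C49G7.12*, *irg-2* and *Y58A7A.5* were lower with B12 than with vehicle, at -3.39 ± 0.25, -2.36 ± 0.34 and -2.79 ± 0.24 on the log2 scale. Next to *F14F9.4*, *F14F9.8* and *F14F9.3* were at 3.20 and 3.38 with vehicle. With B12 they did not pass against wild type, at -0.83 and 0.65. Next to *oac-57*, *oac-59* was at 0.69 with B12 and 1.12 with vehicle, and *oac-58*, on the other side and nearer, at -0.65 and -0.79. Beside *dod-22*, *F55G11.8* was at 1.45 with B12 and 0.38 with vehicle, and was higher with B12 than with vehicle (1.07 ± 0.17), where *dod-22* was lower. The 3 neighbours called lower than wild type with B12 were *lpr-1* (beside *Y65B4BR.1*), *C17H12.8* (beside *C17H12.6*) and *pezo-1* (beside *C10C5.2*). They were at -0.99, -1.11 and -0.34. Among the 12 called lower with vehicle were *F55G11.2* beside *dod-22*, at -1.56, and *cyp-35A3* beside *K09D9.1*, at -1.82. The neighbours named here were chosen after their values were seen.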

How the data were processed

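RNA of whole larvae was sequenced as paired ends. Per the submitters' processing notes, kallisto 0.46.0 quantified transcripts of WormBase WS245 after demultiplexing with bcl2fastq. The authors deposited fractional estimated counts per transcript for each library and a table of CPM per gene. CPM values printed here are the deposited ones, and TPM was computed from the deposited counts and effective lengths. Genes, lists, rules and tests were chosen with earlier results of these data known.

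Estimated counts were summed per gene, rounded, and matched to CPM entries by their values in 9 libraries (tolerance 1%). Symbols and coordinates are from the WBcel235 annotation (Ensembl 115), and 20165 of 20444 genes matched. edgeR 4.0.16 (R 4.3.3) tested 14795 genes passing filterByExpr, with TMM scaling, robust quasi-likelihood fits over 9 libraries and Benjamini-Hochberg adjustment. The procedure was tested on simulated data. Marker sums used exact permutation tests. Alternatives were upper quartile and RLE scaling, a filter of 5 CPM in 3 libraries or none, DESeq2 1.42.0, limma 3.58.1 on log2(deposited CPM + 1 or + 0.25), the 6 libraries compared, a replicate block, a spermatogenesis covariate and leaving out each library. Members named were those with the highest levels or ratios, called between the mutant groups, in a list, in a shared family or next to another, and nearest the threshold. Genes outside the set were named by a rule (*nhr-114*, up to 4 per list by adjusted p, the 3 nearest below the threshold). The other lipases, some channel genes, overlapping genes, neighbours and some *dod* genes were named in addition, after values were seen.

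Kallisto divides reads between near-identical transcripts, so close paralogs are uncertain. Promoter and protein sequences were not used here.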

Additional observations from a re-analysis of the deposited data

How the results depend on the processing

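The count of genes in the set was 36 entries and stayed between 32 and 45 under other CPM minimums, dropped names or TMM scaling, was 36 to 51 when 1 library was left out, and was 13 with a ratio of 3. Without wild-type replicate 3 it was 51. Members higher and lower with B12 numbered 5 and 15, ran from 4 to 6 and from 12 to 18 when 1 library was left out, and were 1 and 2 with the spermatogenesis covariate, where the median log2 fold change of the members was -0.73 against -0.48. Of the 17 calls lost with it, 11 had a log2 fold change as large or larger and 6 a smaller one, from which nothing is read. That covariate also gave 12 higher and 67 lower over all genes between B12 and vehicle, 282 and 101 between vehicle and wild type, and 596 lower between B12 and wild type. The covariate's values do not overlap between the mutant groups, and the cause was not tested. Over all genes between B12 and wild type, leaving out 1 library gave 673 to 1216 higher (1077 in all libraries) and 555 to 901 lower (907 in all libraries). The counts of 673 and 685 were without wild-type replicate 2 and mutant B12 replicate 3, and those of 555 and 582 without mutant B12 replicates 2 and 1.

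Correlations of deviations for the same replicate number in the mutant groups were 0.031, -0.10 and 0.00065. Between wild type and mutants they ran from -0.22 to 0.37 for the same number and from -0.42 to 0.27 for different numbers. Whether the numbers pair the samples cannot be told from 3 libraries a group. With the replicate block 6 members were higher and 17 lower.

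Signs turned only for members that were not called. The log2 difference of *spl-2* (-0.02) became 0.0094 (RLE), 0.053 (upper quartile), 0.029 (no filter), 0.0068 (5 CPM filter), 0.39 (covariate), 0.010 (6 libraries) and 0.0068 (DESeq2), and *cnc-4* (-0.01) became 0.021, 0.063, 0.043 and 0.019 under the same scalings and filters, 0.014 (replicate block), 0.022 (6 libraries) and 0.018 (DESeq2). *F14F9.4* was 0.021 and *vglu-3* 0.027 under upper quartile scaling, and *vglu-3* 0.0031 with no filter. *oac-6* was -0.0052 and -0.0054 in limma with pseudocounts of 1 and 0.25. With the covariate, *nlp-34* was -0.90, *oac-6* -0.90, *str-7* 0.065, *aqp-1* 0.015, *bigr-1* 0.35 and *F46C5.1* 0.025. Leaving out 1 library gave ranges of -0.15 to 0.11 for *spl-2*, -0.18 to 0.24 for *cnc-4*, -0.14 to 0.078 for *F14F9.4*, -0.15 to 0.021 for *vglu-3* and -0.047 to 0.062 for *oac-6*. At 3 libraries a group and these depths, low genes such as *delm-2* in wild type rest on few counts.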
